A study of Mus musculus with 8 samples.

Results

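The immunoglobulin variable (V) genes of the mouse were followed through RNA-seq libraries of whole aortas. A locus was taken when any of its symbols began with Ighv, Igkv or Iglv and its counts summed to at least 20 over the 8 libraries, which held for 138 of the 248 V-named loci among 48607 loci in the table. The loci were thus chosen by their summed count, so that a locus with counts in a single library could enter as well as one with counts in all of them. Of the 138 loci, 73 belonged to the heavy chain, 62 to the kappa chain and 3 to the lambda chain. V symbols alone named 134 of them, and 4 carried other symbols too. Just inside the limit lay Ighv2-6 with 21 counts and Igkv4-50 with 24, and just outside it lay 5 loci with 16 counts each, among them Igkv1-133 and Ighv6-4. The 110 V-named loci under the limit held 396 counts together, and 57 of them were at 0 in every library.

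The aortas came from ApoE-/- mice, which lack apolipoprotein E and develop atherosclerosis, and from NPRC-/-ApoE-/- mice, in which a frameshift made with CRISPR in Npr3, the gene of natriuretic peptide receptor C (NPRC), is present in every cell. All of the mice had been on a Western diet, and by the labels all of them lacked apolipoprotein E. Titles named 5 libraries ApoE-/- and 3 libraries NPRC-/-ApoE-/-. In 4 libraries, however, the genotype entry of the label named the other genotype: ApoE-/- 4 and ApoE-/- 5 were entered as Nprc-/-Apoe-/-, and NPRC-/-ApoE-/- 1 and NPRC-/-ApoE-/- 2 as Apoe-/-. Each comparison was therefore made by title and again by genotype entry, and libraries are called by their titles below. Counts of Npr3 did not separate the groups under either label. As counts scaled to 1000000 counts of the library (CPM), Npr3 stood at 76.1, 41.1, 27.5, 44.1 and 73.7 in ApoE-/- 1 to 5 and at 52.3, 62.3 and 50.7 in NPRC-/-ApoE-/- 1 to 3. Since a frameshift can leave the RNA in place, these counts do not check the labels. The labels give no age. By the study's methods the groups were littermates fed the diet for the same length of time, and the aortas sequenced were counted in mice, with as many of one genotype as of the other. Libraries of the deletion beyond the 3 named above are not analysed here. Neither source says that each library was a single mouse, so that p-values measure the spread between these libraries. Total counts per library were between 62969165 and 86693276, no library repeated another, and the smooth muscle genes expected of aorta were abundant, with a summed level between 5153 and 12730 CPM.

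V genes hold most of the antigen-binding part of an antibody. A developing B cell joins 1 heavy chain V segment to D and J segments and 1 light chain V segment, kappa or lambda, to a J segment, and the joined V exon is then spliced to a constant region. The cell and all its descendants carry the same joined V exons, and plasma cells, the secreting end stage, transcribe them at very high rates. B cells and plasma cells of an aorta are found in the adventitia and in the lymphoid tissue and fat around it, while smooth muscle and endothelium do not rearrange V genes.

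The coding sequences of 4 V genes are shown because single libraries rested on them: Ighv14-2 led the heavy chain of library ApoE-/- 3, Ighv1-26 and Igkv4-61 led ApoE-/- 4, and Ighv1-18 was second in ApoE-/- 3 although it is nearly the same as Ighv1-26. Each sequence gives the last 300 coding bases of the germline gene in the GENCODE M21 transcripts, within a single coding exon on the minus strand of GRCm38, at chr12:113994469-113994768 for Ighv14-2, chr12:114788372-114788671 for Ighv1-26, chr12:114682632-114682931 for Ighv1-18 and chr6:69416893-69417192 for Igkv4-61. Capitals mark the cysteine codon near the 3′ end and the bases after it, where the V segment is cut and joined to the next segment.
Ighv14-2: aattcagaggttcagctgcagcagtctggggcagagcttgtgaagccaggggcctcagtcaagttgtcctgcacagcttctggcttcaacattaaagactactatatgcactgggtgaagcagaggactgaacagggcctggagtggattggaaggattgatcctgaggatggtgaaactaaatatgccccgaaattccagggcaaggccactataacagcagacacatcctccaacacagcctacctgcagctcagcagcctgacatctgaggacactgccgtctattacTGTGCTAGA
Ighv1-26: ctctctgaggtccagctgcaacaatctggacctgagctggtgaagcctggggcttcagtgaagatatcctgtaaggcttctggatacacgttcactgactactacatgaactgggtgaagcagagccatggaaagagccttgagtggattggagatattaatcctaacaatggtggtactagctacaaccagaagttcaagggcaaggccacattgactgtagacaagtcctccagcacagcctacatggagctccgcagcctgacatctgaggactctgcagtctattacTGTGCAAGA
Ighv1-18: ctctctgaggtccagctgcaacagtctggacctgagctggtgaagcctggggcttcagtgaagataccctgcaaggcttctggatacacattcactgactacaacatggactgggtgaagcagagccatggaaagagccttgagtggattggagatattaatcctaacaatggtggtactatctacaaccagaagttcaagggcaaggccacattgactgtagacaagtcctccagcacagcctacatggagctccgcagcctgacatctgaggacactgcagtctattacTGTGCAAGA
Igkv4-61: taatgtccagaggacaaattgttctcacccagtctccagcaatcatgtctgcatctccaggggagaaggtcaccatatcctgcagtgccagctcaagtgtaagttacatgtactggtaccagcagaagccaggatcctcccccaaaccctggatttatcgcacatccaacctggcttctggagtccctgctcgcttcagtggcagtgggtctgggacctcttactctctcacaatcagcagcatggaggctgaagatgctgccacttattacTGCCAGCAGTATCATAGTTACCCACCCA

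In these 300 bases, Ighv1-26 and Ighv1-18 differed at 8 positions, a match of 97.3%. Ighv14-2 differed from Ighv14-1, its nearest gene, at 9 positions and from Ighv1-26 at 67. Across the 145 V genes of the loci with a sequence, the median match to the nearest other V gene was 95.3%, and 82 of them had another V gene at 95% or more. Reads of such genes can be split between copies by the mapping, and expressed V exons also carry somatic mutations, so that the count of a single V gene is less certain than that of its family.

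V counts were high in 3 libraries and low in 5. Over all 138 loci they stood at 17.2, 361, 396, 267 and 17.1 CPM in ApoE-/- 1 to 5 and at 22.1, 3.10 and 4.85 CPM in NPRC-/-ApoE-/- 1 to 3. ApoE-/- 2, 3 and 4 were thus far above the other libraries, while ApoE-/- 1 and ApoE-/- 5 lay below NPRC-/-ApoE-/- 1, and the titled groups overlapped. In raw counts this was 24176, 32748 and 22594 in the 3 high libraries, between 1320 and 1919 in ApoE-/- 1, ApoE-/- 5 and NPRC-/-ApoE-/- 1, and only 195 in NPRC-/-ApoE-/- 2 and 415 in NPRC-/-ApoE-/- 3. The 134 loci of V symbols alone gave the same order at the top, with 189, 221 and 135 CPM in ApoE-/- 2, 3 and 4, 9.38 and 8.18 CPM in ApoE-/- 1 and 5, and 9.84, 1.37 and 2.09 CPM in NPRC-/-ApoE-/- 1 to 3.

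**Figure D1:**
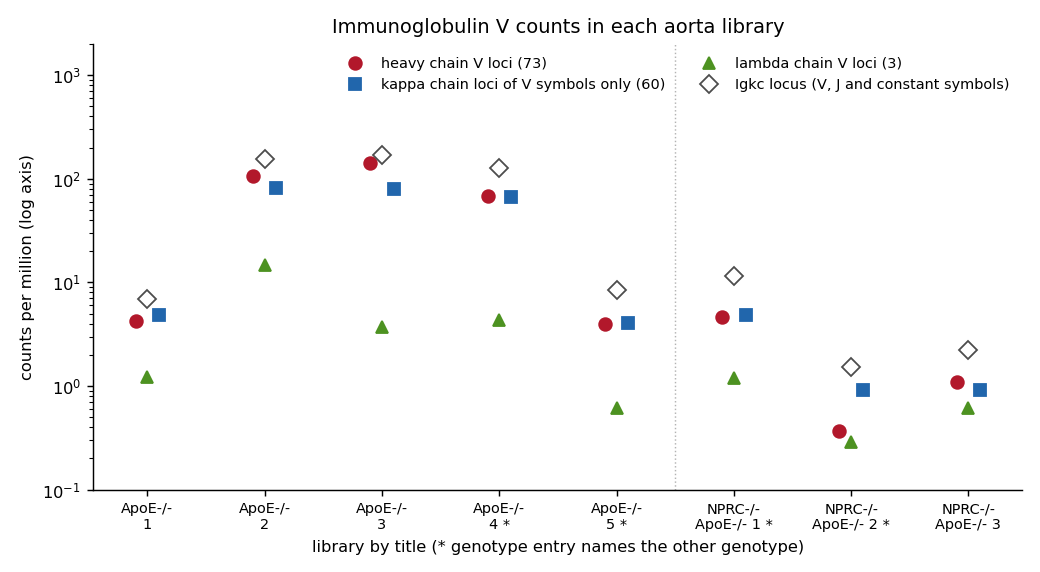
CPM, on a log axis, of the heavy chain V loci, the kappa chain loci of V symbols only, the lambda chain V loci and the Igkc locus in each of the 8 libraries, 1 point per library and set. An asterisk marks a library whose genotype entry names the other genotype. Heavy chain V loci reach 67.6 to 141 CPM in ApoE-/- 2, 3 and 4 and lie between 0.365 and 4.65 CPM in the other libraries.

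On the log2 CPM scale, the mean of the 5 libraries titled ApoE-/- was 6.68 and that of the 3 titled NPRC-/-ApoE-/- was 2.79. The difference, -3.89, was 1 sum over the chosen loci and was given no test, and the pooled SD of the libraries within their groups was 2.11. By genotype entry the same means were 5.47 without and 4.81 with the NPRC deletion. That difference, -0.65, was smaller than the pooled SD of 3.01, since each entered group then held both high and low libraries: 361 and 396 CPM against 17.2, 22.1 and 3.10 in those entered Apoe-/-, and 267 against 17.1 and 4.85 in those entered Nprc-/-Apoe-/-. In bulk tissue, fewer B lineage cells and less antibody RNA per cell cannot be told apart.

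Both light and heavy chains took part in the high libraries. The heavy chain V loci, which lie on chromosome 12 over 2.41 Mb of GRCm38, stood at 106, 141 and 67.6 CPM in ApoE-/- 2, 3 and 4, at 4.22 and 4.00 in ApoE-/- 1 and 5, and at 4.65, 0.365 and 1.09 in NPRC-/-ApoE-/- 1 to 3. The 60 kappa loci of V symbols alone, over 3.00 Mb of chromosome 6, stood at 82.2, 79.9 and 67.0 CPM in ApoE-/- 2, 3 and 4, at 4.82 and 4.09 in ApoE-/- 1 and 5, and at 4.88, 0.905 and 0.922 in NPRC-/-ApoE-/- 1 to 3. In both chains ApoE-/- 1, ApoE-/- 5 and NPRC-/-ApoE-/- 1 were alike, and NPRC-/-ApoE-/- 2 and 3 were the lowest.

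The largest single entry was a kappa locus that the assembly had merged. It carries 11 symbols, 5 V genes (Igkv8-18, Igkv3-5, Igkv3-4, Igkv3-2 and Igkv3-1) besides Gm30211, J segments and Igkc, the only kappa constant gene, and is called the Igkc locus here. It held 560, 10506, 14162, 10831 and 644 counts in ApoE-/- 1 to 5 and 990, 97 and 191 in NPRC-/-ApoE-/- 1 to 3, from 40.4 to 51.6% of all V counts of a library. Its reads cannot be divided between V, J and constant segments in this table, so that diversity is given over the 134 loci of V symbols alone. Likewise Iglv1 shares a locus with Iglc1 and Iglc3, and Iglv2 with Iglc2.

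Kappa loci, the Igkc locus among them, held 63.5 to 73.1% of V counts in the libraries titled ApoE-/- and 65.1 to 79.0% in those titled NPRC-/-ApoE-/-. The means of the titled groups, 68.9 and 72.6%, lay closer than the pooled SD of 5.30 percentage points. Heavy chain loci held 35.6% in ApoE-/- 3, the highest share, and 11.8% in NPRC-/-ApoE-/- 2, the lowest, where the heavy chain rested on 23 counts. Lambda was the smallest chain with 0.928% in ApoE-/- 3 and 1.63% in ApoE-/- 4, and up to 12.5% in NPRC-/-ApoE-/- 3 from 52 counts. Iglv3, the only lambda locus of a V symbol alone, was 1 of 2 V-only loci with counts in all 8 libraries, with 28, 88, 45, 21 and 7 counts in ApoE-/- 1 to 5 and 27, 6 and 7 in NPRC-/-ApoE-/- 1 to 3. Its level ran from 0.0817 to 1.31 CPM, a narrower range than that of the heavy or kappa loci. Per transcript length (FPKM), where the long Igkc locus weighs less, kappa took 40.9 to 53.1% of V signal in the libraries titled ApoE-/-, and 55.3, 70.1 and 50% in NPRC-/-ApoE-/- 1 to 3.

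The 3 high libraries differed in diversity. Loci of V symbols alone with at least 1 count numbered 132 in ApoE-/- 2, 66 in ApoE-/- 3 and 86 in ApoE-/- 4, against 52 and 41 in ApoE-/- 1 and 5 and 71, 17 and 29 in NPRC-/-ApoE-/- 1 to 3. The effective number of loci, the exponential of the Shannon entropy, states how many equally used loci would give the same evenness. It was 79.7 in ApoE-/- 2, 8.64 in ApoE-/- 3 and 21.5 in ApoE-/- 4, and 33.4 and 26.4 in ApoE-/- 1 and 5. In NPRC-/-ApoE-/- 1 to 3 it was 52.7, 15.3 and 24.9. ApoE-/- 3, the library with the most V counts, was thus the least diverse of all, and ApoE-/- 2, with a similar V level, the most diverse.

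Over the loci of V symbols alone, the most and the least diverse library were the same ones at equal depth. When each library was thinned by formula to the 86 V counts of the smallest one, 50.1 loci were expected in ApoE-/- 2, 43.3 in NPRC-/-ApoE-/- 1, 34.7 in ApoE-/- 1, 28.7 in ApoE-/- 5, 27.2 in NPRC-/-ApoE-/- 3, 24.8 in ApoE-/- 4, 17.0 in NPRC-/-ApoE-/- 2 and 15.1 in ApoE-/- 3. The titled groups overlapped over most of their range. For the heavy chain alone the effective number was 39.8 in ApoE-/- 2, 10.2 in ApoE-/- 4 and 4.06 in ApoE-/- 3, and for kappa 39.7, 11.2 and 5.19. Both chains ranked these 3 libraries the same way. Over all libraries the extremes of the heavy chain changed at equal depth. Thinned to 23 heavy chain counts, NPRC-/-ApoE-/- 1 came first with 16.7 loci expected, above ApoE-/- 2 with 16.4. NPRC-/-ApoE-/- 2 came last with 5, below ApoE-/- 3 with 5.34.

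**Figure D2:**
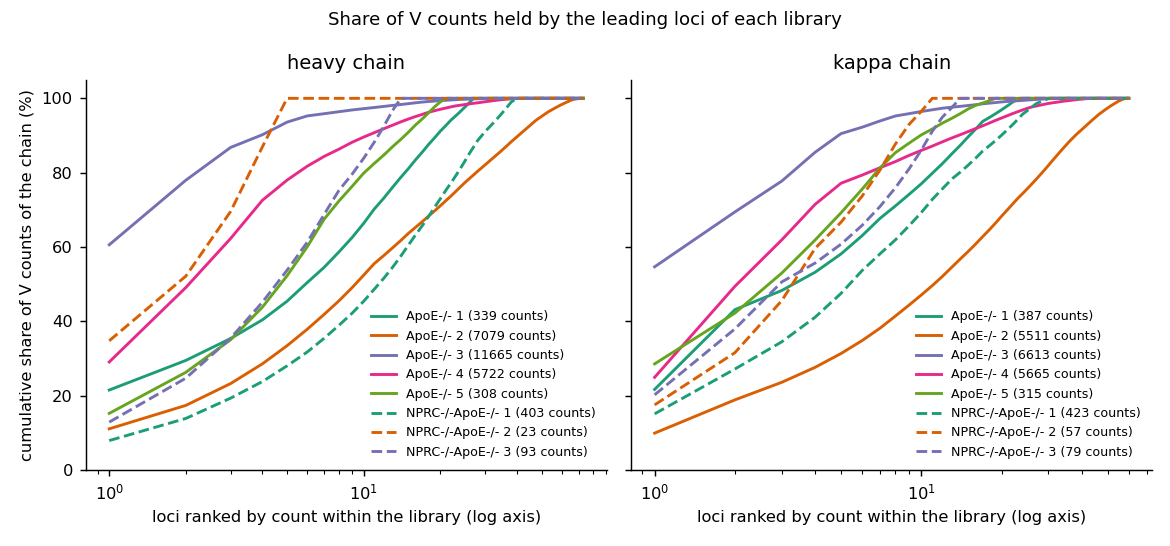
Cumulative share of V counts (%) against the rank of the locus within its library, on a log axis, for heavy chain loci (left) and kappa loci of V symbols only (right), 1 line per library with its V count in the key. The line of ApoE-/- 3 starts highest in both panels, at 60.6% and 54.7%. For kappa the line of ApoE-/- 2 is the lowest, and for the heavy chain the lines of ApoE-/- 2 and NPRC-/-ApoE-/- 1 are the lowest.

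In ApoE-/- 3 a single V gene of each chain took most of the counts. Ighv14-2 had 0, 88, 7069, 67 and 0 counts in ApoE-/- 1 to 5 and 0, 0 and 3 in NPRC-/-ApoE-/- 1 to 3, and its 7069 counts were 60.6% of the heavy chain V counts of ApoE-/- 3 (95% Wilson interval, 59.7 to 61.5%). Igkv4-68 had 0, 57, 3616, 27 and 8 counts in the ApoE-/- libraries and 0, 0 and 4 in the others, which made 54.7% of the kappa counts of ApoE-/- 3 (53.5 to 55.9%). Both genes were thus nearly confined to that library, with at most 88 and 57 counts in any other. Such intervals cover counting error only, since reads are not independent molecules. By FPKM the shares were 61.7 and 53.4%, and Ighv14-2 reached 204 FPKM. Next in the heavy chain came Ighv1-18 with 17.4% and Ighv14-3 with 8.82%, and next in kappa Igkv4-55 with 14.8%, Igkv6-23 with 8.32% and Igkv3-10 with 7.74%. The 5 leading loci together held 93.6% of the heavy and 90.5% of the kappa V counts.

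ApoE-/- 4 was led by other genes and less steeply. Ighv1-26 held 29.1% of its heavy chain counts (27.9 to 30.3%) with 14, 285, 13, 1664 and 0 counts in ApoE-/- 1 to 5 and 0 in all 3 NPRC-/-ApoE-/- libraries. Ighv1-74 followed with 20.03%, Ighv1-66 with 13.2% and Ighv1-82 with 10.3%. Among kappa loci Igkv4-61 held 25.0% (23.8 to 26.1%) and a locus of Igkv6-14 and Igkv6-13, which spans both genes, held 24.5%. The lead was thus shared in counts, but by FPKM these shares were 29.8 and 15.8%. Ighv1-74, with 1146 counts in ApoE-/- 4, had 41 in ApoE-/- 2, 7 in NPRC-/-ApoE-/- 3 and 0 in the other 5 libraries, and Ighv1-66, with 755, had 14 in ApoE-/- 3, 1 in ApoE-/- 2 and 0 elsewhere. The 5 leading loci held 78.0% of heavy and 77.2% of kappa counts.

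ApoE-/- 2 had no such lead. Its first heavy locus, Ighv3-6, held 786 counts or 11.1% (10.4 to 11.9%), followed by Ighv1-9 with 6.30%. Its first kappa locus, Igkv4-57, held 548 counts or 9.94% (9.18 to 10.8%). The 5 leading loci held 33.5% of heavy and 31.4% of kappa counts. Of the 134 loci of V symbols alone, 88 had their highest count in ApoE-/- 2, 22 in ApoE-/- 4, 18 in ApoE-/- 3, 4 in ApoE-/- 1 and 2 in NPRC-/-ApoE-/- 1. A locus had a median of 73.2% of all its counts in a single library, 111 had over 50% there and 30 had over 90%.

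The low libraries were led by further genes, at small counts. In ApoE-/- 1 the first heavy locus was Ighv3-1 with 73 counts (21.5%, 17.5 to 26.2%), which had 15 counts in NPRC-/-ApoE-/- 1 and 0 in the other 6 libraries. ApoE-/- 5 was led by Ighv1-18 with 47 counts (15.3%), NPRC-/-ApoE-/- 1 by Ighv8-8 with 32 (7.94%), NPRC-/-ApoE-/- 2 by Ighv6-3 with 8 and NPRC-/-ApoE-/- 3 by Ighv3-6 with 12. For kappa, a locus of Igkv1-117 and Igkv1-110 led ApoE-/- 1, ApoE-/- 5 and NPRC-/-ApoE-/- 1 with 84, 90 and 64 counts, but not by FPKM, because this locus spans both genes. Igkv1-135 led NPRC-/-ApoE-/- 2 with 10 counts, and Igkv4-53 led NPRC-/-ApoE-/- 3 with 16. At these depths a share is uncertain, as the interval of Ighv6-3 in NPRC-/-ApoE-/- 2 shows, at 18.8 to 55.1% around 34.8%.

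**Figure D3:**
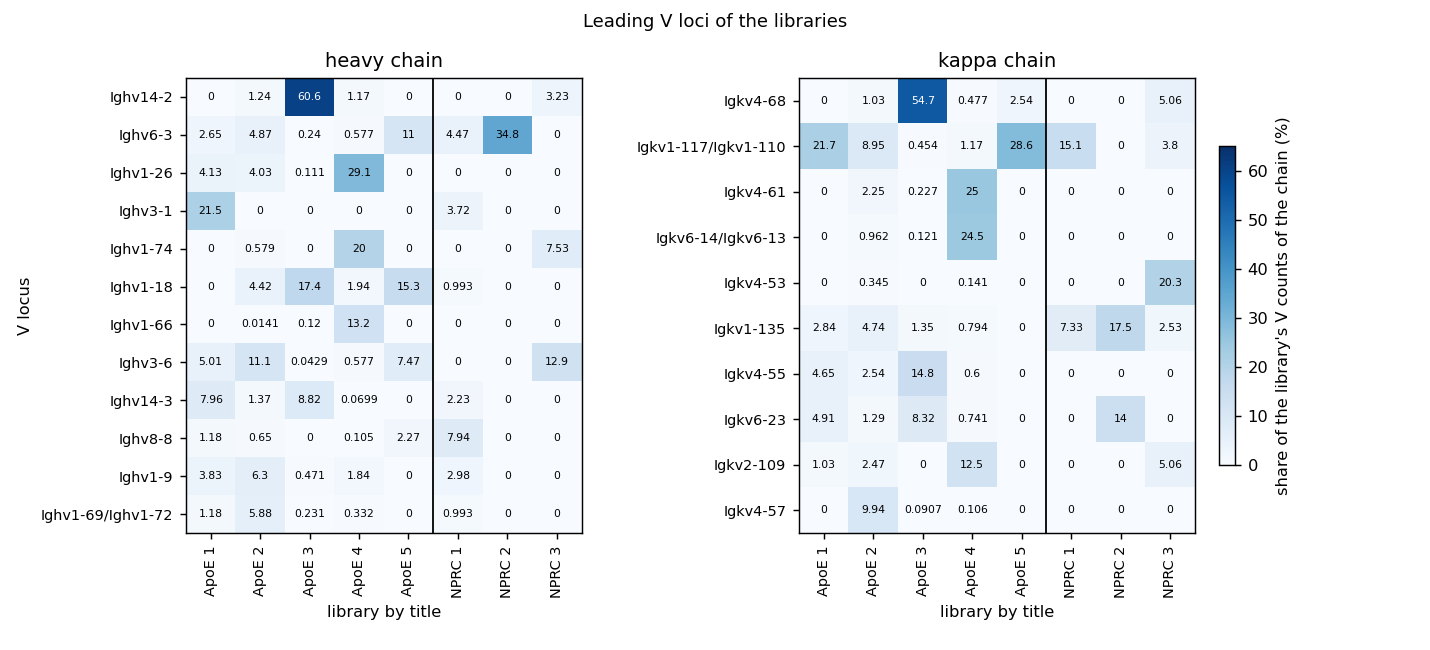
Share (%) of the V counts of the heavy chain (left) and of kappa loci of V symbols only (right) held by leading loci (rows) in each library (columns), with NPRC standing for NPRC-/-ApoE-/- in the column names. Rows are the loci among the first 3 of ApoE-/- 2, 3 or 4 or first in any library. Most rows have their dark cell in a single column, such as Ighv14-2 with 60.6% and Igkv4-68 with 54.7% in ApoE-/- 3.

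Usage overlapped little between the high libraries. Summing, over loci, the smaller of both shares gives the part of V usage that 2 libraries have in common. For heavy chains this was 13.6% between ApoE-/- 2 and 3, 24.5% between ApoE-/- 2 and 4 and 7.04% between ApoE-/- 3 and 4. For kappa it was 17.4, 28.3 and 7.39%. ApoE-/- 3 and 4, both steeply led, had the least in common of the 3 pairs in both chains. Over all 28 pairs of libraries the overlap ran from 0 to 38.1% for heavy chains and from 6.50 to 49.2% for kappa, with low counts in 5 of the libraries.

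Families and position on the chromosome showed the same split. V genes of a family share most of their sequence, and the Ighv1 family is the largest in the mouse heavy chain, with 41 of the 73 loci here. Ighv1 held 89.2% of heavy counts in ApoE-/- 4, 55.8% in ApoE-/- 2 and 25.2% in ApoE-/- 3, and Ighv14, with 4 loci, held 72.8% in ApoE-/- 3 against 3.59% in ApoE-/- 2 and 2.31% in ApoE-/- 4. In the remaining libraries Ighv1 ranged from 23.7% in NPRC-/-ApoE-/- 3 to 59.1% in NPRC-/-ApoE-/- 1. Igkv4, with 14 loci, held 72.0% of kappa counts in ApoE-/- 3, 29.2% in ApoE-/- 4 and 23.2% in ApoE-/- 2, and 0 in NPRC-/-ApoE-/- 2. Igkv6, with 8 loci, held 29.0% in ApoE-/- 4 and 9.54% in ApoE-/- 3. Reads split between near copies of a family leave its share as it is.

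Positions along the chromosomes differed in the same way. When the heavy V region was cut into 3 equal stretches, the one nearest to the constant genes, with 28 loci, held 74.5% of heavy counts in ApoE-/- 3, 37.1% in ApoE-/- 2 and 10.5% in ApoE-/- 4, and the farthest, with 23 loci, held 2.89, 27.9 and 54.3%. Ighv14 lies in the near stretch, and Ighv1 reaches the far one. In the 5 low libraries the near stretch held 33.0 to 69.9%. Kappa V genes lie on both strands and join to J by deletion or by inversion of the stretch between, according to strand. The 41 loci on the minus strand, which join by inversion, held 82.1% of kappa counts in ApoE-/- 3, 70.9% in ApoE-/- 4 and 62.6% in ApoE-/- 2, and from 48.9 to 77.2% in the low libraries.

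Near copies, and other members of a family, did separate between libraries. Ighv1-18 had 2026 counts in ApoE-/- 3, where Ighv1-26 had 13, while in ApoE-/- 4 Ighv1-26 had 1664 and Ighv1-18 had 111. Likewise Igkv4-68 and Igkv4-61 had 3616 and 15 counts in ApoE-/- 3 and 27 and 1414 in ApoE-/- 4. Each pair thus turned around between these libraries, although Ighv1-18 and Ighv1-26 differ at only 8 of the 300 bases printed above. In ApoE-/- 2 both members of the pairs were present, at 313 and 285 counts for Ighv1-18 and Ighv1-26 and at 57 and 124 for Igkv4-68 and Igkv4-61.

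The comparison by title asked whether V loci differed with NPRC deletion. The limits of the study were used as the criterion, more than 2-fold up or less than 0.5-fold with a p under 0.05 before adjustment, with p taken here from edgeR's quasi-likelihood test. By it 36 of the 138 V loci were lower in the libraries titled NPRC-/-ApoE-/- and 0 were higher. Of all 37189 loci tested, 5.51% met the criterion, 3.85% as lower and 1.66% as higher. After Benjamini-Hochberg adjustment over all loci tested, 0 V loci had an adjusted p under 0.05 in edgeR, and their smallest adjusted p was 0.314. DESeq2 on the same counts gave 11 of 138, against 2.8% of all loci tested, and limma on log2(FPKM + 1) gave 0 against 0.00538%. The 36 were 16 heavy, 19 kappa and 1 lambda loci, and 14, 11 and 11 of them had their highest count in ApoE-/- 2, 3 and 4. Without ApoE-/- 2 the count fell to 22, of which 1 was higher, without NPRC-/-ApoE-/- 2 to 14 and without NPRC-/-ApoE-/- 3 to 11. Over all loci tested the count fell too, from 2050 to 1756, 1320 and 1468.

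Fitted changes leaned one way. The log2 fold change was below 0 for 136 of the 138 V loci, against 51.5% of all loci tested, and its median was -4.32 against -0.02. Because 45 V loci were at 0 in all 3 libraries titled NPRC-/-ApoE-/-, their fitted values are no measurements, and with each of these set to the bound that 3 counts over the group allow the median was -3.38. Without ApoE-/- 2 the number below 0 was 103. These counts describe loci that were picked with the results known, and many of them follow the same 3 libraries. As a check on the groups themselves, 1 V locus had titled groups that did not overlap, against 4.18% of all loci tested as lower and 2.82% as higher. It was the locus of Igkv2-137 and Gm42889, with 2, 92, 4, 7 and 6 counts in ApoE-/- 1 to 5 and 0 in all 3 NPRC-/-ApoE-/- libraries, at least 22.2-fold lower over the group (adjusted p = 0.353 in edgeR's quasi-likelihood test).

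Among named loci, Ighv1-18 had the smallest p of the V loci by title. It had 0, 313, 2026, 111 and 47 counts in ApoE-/- 1 to 5 and 4, 0 and 0 in NPRC-/-ApoE-/- 1 to 3, with a log2 fold change of -8.49 (SE 2.56, adjusted p = 0.314 in edgeR's quasi-likelihood test). ApoE-/- 1, at 0, overlapped the other group. The Igkc locus had a log2 fold change of -4.28 (SE 1.36, adjusted p = 0.329 in edgeR), and ApoE-/- 1 and ApoE-/- 5 lay below NPRC-/-ApoE-/- 1 in it. Igkv6-17, with 0, 56, 41, 42 and 5 counts against 0 in all 3 others, was at least 28.8-fold lower, and Igkv3-12, with 4, 24, 0, 94 and 43 against 0, at least 33.0-fold lower, both of them overlapping at 0. The Iglc1 locus had 34, 617, 203, 339 and 27 counts against 34, 12 and 29 and a log2 fold change of -3.41 (SE 1.12, adjusted p = 0.338 in edgeR). The leading genes of the high libraries gave no smaller p: Ighv14-2 had a log2 fold change of -10.37 (SE 3.82), and its level within the titled ApoE-/- group ran from 0 to 85.4 CPM.

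By genotype entry, 13 V loci met the criterion, 10 lower and 3 higher with the deletion, while 1.57% of all loci tested did, 0.705% as lower and 0.863% as higher. In edgeR 0 V loci had an adjusted p under 0.05 (1 in DESeq2, where 0.0887% of all loci tested did). Log2 fold changes were below 0 for 111 V loci against 50.6% of all loci tested, with a median of -2.31 (-2.23 with bounds for the 34 loci at 0). Without ApoE-/- 2, 63 of 138 were below 0 and the median was 0.00. The direction of the loci that met the criterion turned with single libraries. Without ApoE-/- 2, 3 were lower and 13 higher, and without either ApoE-/- 5 or NPRC-/-ApoE-/- 3, 0 were lower and 3 higher. Over all loci tested, 201 were lower and 318 higher without ApoE-/- 2. These numbers were 371 and 272 without ApoE-/- 5, and 258 and 262 without NPRC-/-ApoE-/- 3. In all 8 libraries 0 V loci had entered groups that did not overlap, against 0.791% as lower and 0.656% as higher of all loci tested. The V loci thus split less clearly by genotype entry, and both comparisons draw on the same 8 libraries.

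**Figure D4:**
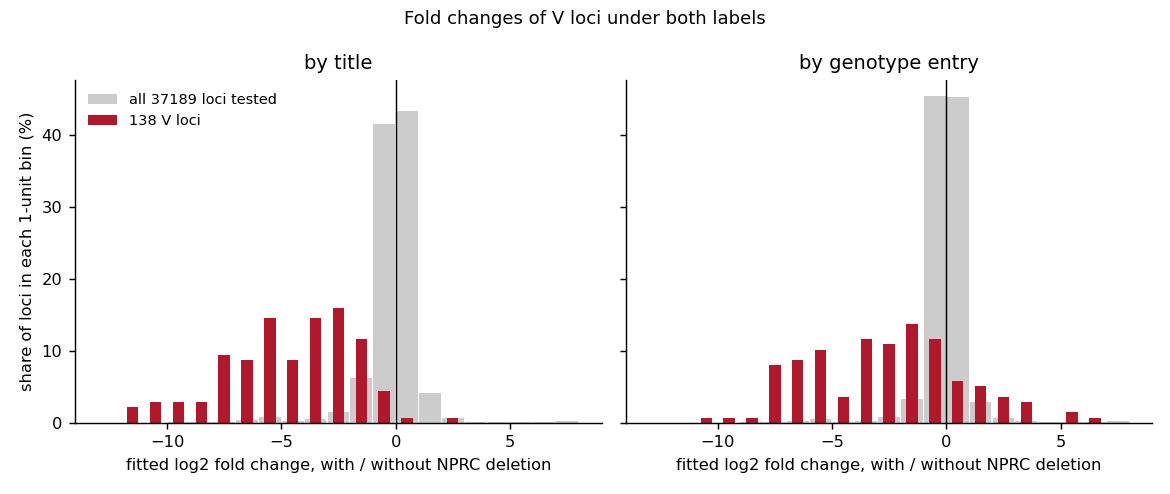
Share (%) of loci in each bin of 1 unit of fitted log2 fold change, with over without NPRC deletion, by title (left) and by genotype entry (right), for the 138 V loci and for all 37189 loci tested. Values beyond the ends are counted in the end bins. By title 136 V loci lie below 0, and by genotype entry 111 do.

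The 3 loci higher by genotype entry had their highest counts in ApoE-/- 4, which that entry places in the other group, and ranked 2 or 3 in their chain there. Ighv1-26 and Igkv4-61, the first of each chain in that library, did not meet the criterion. Ighv1-66 had a log2 fold change of 6.30 (SE 2.15), Ighv1-74 of 5.40 (SE 2.18) and the Igkv6-14 and Igkv6-13 locus of 5.10 (SE 2.23), each with an adjusted p of 1 in edgeR's quasi-likelihood test. By title the fitted values of the same loci were -10.27, -6.62 and -11.19. Among the loci lower by genotype entry, Ighv14-3 had 27, 97 and 1029 counts in ApoE-/- 1 to 3 and 9 and 0 in NPRC-/-ApoE-/- 1 and 2, against 4, 0 and 0 in the libraries entered Nprc-/-Apoe-/-. Its highest count lay in ApoE-/- 3. Ighv1-85 had 5, 54 and 23 counts in ApoE-/- 1 to 3 and 0 in NPRC-/-ApoE-/- 1 and 2 against 0 in the entered Nprc-/-Apoe-/- group, at least 17.8-fold lower. Ighv5-12 had 17, 35 and 0 counts in ApoE-/- 1 to 3 and 12 and 0 in NPRC-/-ApoE-/- 1 and 2 against 0, at least 13.9-fold lower.

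Some other antibody and B lineage genes met the criterion as lower by title as well. After adjustment, 0 of all 37189 loci tested had an adjusted p under 0.05 by title in edgeR. Of 33 loci of constant regions, J segments, plasma cells, surrogate light chain, recombination and mutation, and B cells, 3 carry V symbols and are counted among the V loci above. Of the other 30, 28 could be tested, and 7 met the criterion by title, all as lower, against 3.85% of all loci tested. By genotype entry 4 of them did: Ighe and Pax5 were lower, and Rag1 and Dntt were higher, against 0.705% and 0.863% of all loci tested. The heavy constant genes share 1 locus of 12 symbols, with no V symbol, that includes Ighm, Ighg1, Ighg2b, Ighg2c and Igha, so that isotypes cannot be separated. It stood at 36.3, 306, 275, 230 and 31.6 CPM in ApoE-/- 1 to 5 and at 32.8, 13.1 and 12.3 in NPRC-/-ApoE-/- 1 to 3 (log2 fold change by title -3.23, SE 0.91, adjusted p = 0.292 in edgeR's quasi-likelihood test). Again ApoE-/- 2, 3 and 4 were high, and ApoE-/- 1 and 5 were level with NPRC-/-ApoE-/- 1. Ighg3, which has a locus of its own, was at 31.6 CPM in ApoE-/- 2 and 4.53 in ApoE-/- 4, but at 0.0483 CPM in ApoE-/- 3 and at most 0.709 in the other 5 libraries.

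Heavy V counts did not keep a fixed ratio to the constant locus. For every 100 counts of it there were 34.5, 51.2 and 29.4 heavy V counts in ApoE-/- 2, 3 and 4, 11.6 and 12.6 in ApoE-/- 1 and 5, and 14.2, 2.79 and 8.82 in NPRC-/-ApoE-/- 1 to 3. The 3 highest ratios were those of ApoE-/- 2, 3 and 4. For kappa, V counts per 100 of the Igkc locus ran from 41.4 to 69.1 with no such split. Unspliced or germline transcripts of the constant locus can add to its count, and their part was not tested.

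Jchain, which encodes the chain that links antibody multimers and is made by plasma cells, had 117, 2024, 1389, 1191 and 171 counts in ApoE-/- 1 to 5 and 116, 25 and 30 in NPRC-/-ApoE-/- 1 to 3. Its titled groups did not overlap in CPM, with 1.46 in ApoE-/- 1, the lowest of one group, and 1.34 in NPRC-/-ApoE-/- 1, the highest of the other (log2 fold change -4.24, SE 1.14, adjusted p = 0.288 in edgeR). Of all loci tested, 4.18% did not overlap by title as lower. In the plasma cell list 4 of 9 genes met the criterion as lower by title, against 3.85% of all loci tested: Jchain, Mzb1, Prdm1 and Pou2af1. The adjusted p of Mzb1, Prdm1 and Pou2af1 was 0.380, 0.357 and 0.391 in edgeR. By genotype entry 0 genes of the list were lower, against 0.705% of all loci tested. The locus of Mzb1 also holds Spata24, so that its counts are not those of Mzb1 alone. Likewise Tnfrsf17, among the other genes of the list, shares its locus with Snx29. Xbp1 and Irf4, which other cells of the aorta also express, had log2 fold changes of -0.32 and -0.22.

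B cell markers did not follow the V level in every library. The 8 genes of that list used here, which include Ms4a1, Cd79a and Pax5, summed to 34.0, 117, 46.9, 37.4 and 21.5 CPM in ApoE-/- 1 to 5 and to 30.1, 11.8 and 10.7 in NPRC-/-ApoE-/- 1 to 3. ApoE-/- 2, the most diverse library, was far above all others, and ApoE-/- 3 and 4 were near ApoE-/- 1, although their V level was far higher than in ApoE-/- 1. Ms4a1, the gene of CD20, stood at 13.1 CPM in ApoE-/- 2, at 0 in NPRC-/-ApoE-/- 2 and between 0.362 and 1.80 CPM elsewhere. Plasma cells lose this gene as they mature. In the B cell list 2 of 8 genes, Cd22 and Blk, were lower by title, against 3.85% of all loci tested. By genotype entry 1, Pax5, was lower, against 0.705% of all loci tested.

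**Figure D5:**
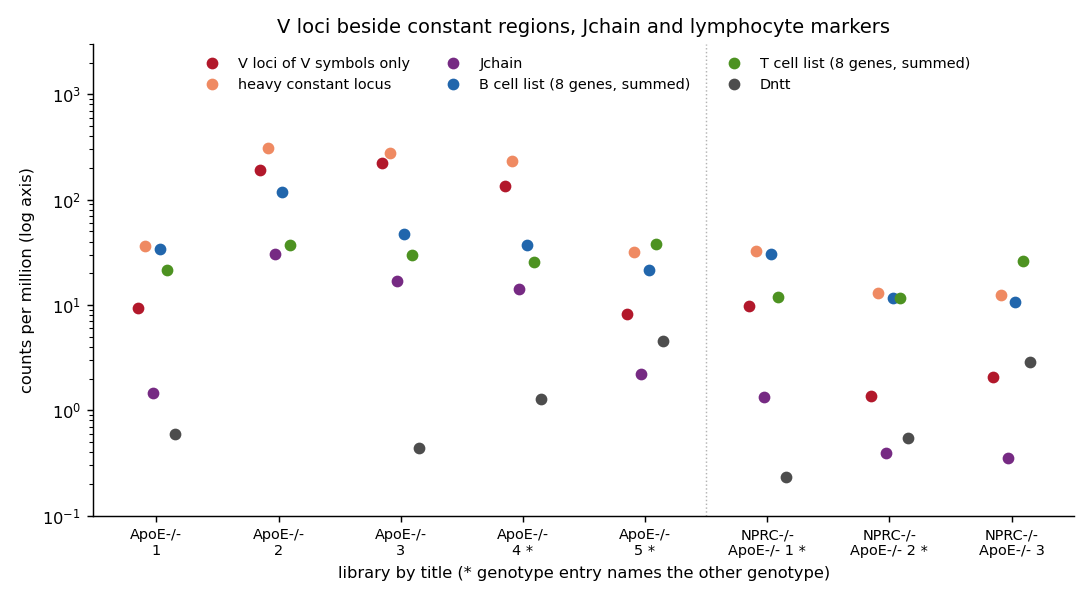
CPM, on a log axis, of the V loci of V symbols only, the heavy constant locus, Jchain, the summed B cell and T cell lists and Dntt in each library. Points at 0 (Dntt in ApoE-/- 2) are not drawn, and an asterisk marks a library whose genotype entry names the other genotype. V loci, the heavy constant locus and Jchain are high in ApoE-/- 2, 3 and 4, while the B cell list is high in ApoE-/- 2 with 117 CPM.

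Recombination genes did not follow the V loci. Dntt, which adds bases at V joints in lymphocyte precursors, stood at 0.597, 0, 0.435, 1.29 and 4.54 CPM in ApoE-/- 1 to 5 and at 0.231, 0.540 and 2.85 in NPRC-/-ApoE-/- 1 to 3. Rag1, in a locus it shares with B230118H07Rik, was also highest in ApoE-/- 5 with 43.1 CPM and in NPRC-/-ApoE-/- 3 with 32.0, both of them libraries of low V level. By genotype entry both genes met the criterion as higher with the deletion, Dntt without overlap (log2 fold change 3.00, SE 0.85, adjusted p = 1 in edgeR). Of all loci tested, 0.656% did not overlap by genotype entry as higher. Immature T cells use the same enzymes, and Cd8a was highest in these libraries as well, with 6.56 and 6.24 CPM against 1.27 to 3.43 in the others. The rest of the T cell list did not share this pattern. Cd247 and Trbc2 were highest in ApoE-/- 5, but Cd3e, Cd3d, Cd3g, Cd4 and Trac were highest in ApoE-/- 2. Which cells the Dntt and Rag1 counts came from was not tested. Vpreb1 and Vpreb3, of the surrogate light chain of B cell precursors, were at most 0.205 CPM in any library, and Igll1 was at 0 in all of them.

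Markers of surrounding tissue moved with some of the same libraries. The T cell list summed to 21.4 to 37.6 CPM in the libraries titled ApoE-/- and to 11.9, 11.5 and 25.9 in NPRC-/-ApoE-/- 1 to 3. By title 2 of 8 genes, Cd3e and Cd4, were lower, against 3.85% of all loci tested. By genotype entry 0 were lower and 1, Cd8a, was higher, against 0.863% of all loci tested. The lymph node list (6 of its 7 genes could be used) shares Cr2 and Fcer2a with the B cell list. It summed to 60.2, 82.95, 44.4, 27.2 and 41.4 CPM in ApoE-/- 1 to 5 and to 28.5 to 38.8 in the others. Cr2 and Cxcl13 were both highest in ApoE-/- 2, at 22.8 and 10.7 CPM, as were Ccl19, Fcer2a and Madcam1, which was at 0 in 6 libraries. Ccl21a, the largest part of the sum, was highest in ApoE-/- 1 at 46.0 CPM, against 37.1, 31.55 and 17.5 in ApoE-/- 2, 3 and 4. Cxcl13 alone met the criterion as lower by title (log2 fold change -2.34), against 3.85% of all loci tested. By genotype entry 0 genes of this list met it. Adipocyte genes, of the fat around the vessel, ranged from 234 CPM in ApoE-/- 3 to 1167 in ApoE-/- 2, with no group split. Macrophage genes summed to 2241, 3096 and 3251 CPM in ApoE-/- 2, 3 and 4 and to 751 to 1858 in the other 5 libraries. The 3 highest sums thus lay in the libraries of highest V level. Of the 4 genes, 1, Lyz2, was lower by title (adjusted p = 0.418 in edgeR), against 3.85% of all loci tested. By genotype entry 0 of the 4 were lower, against 0.705%. The locus of Cd68 in this list holds 8 symbols, so that its counts are not those of Cd68 alone. Smooth muscle genes ran the other way. They summed to 11270 and 12730 CPM in NPRC-/-ApoE-/- 2 and 3, the libraries of lowest V level, and to between 5153 and 7465 CPM in the other 6. All 6 genes of that list had log2 fold changes above 0 by title, with a median of 0.75, 0 of them met the criterion, and Cnn1 and Smtn had groups that did not overlap (2.82% of all loci tested did so as higher). By genotype entry the median was 0.16, 0 of the 6 genes met the criterion, and the groups of Cnn1 and Smtn overlapped. How far lymph node, fat, plaque or smooth muscle content took part in the V counts was not tested.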

How the data were processed

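RNA-seq of 8 whole mouse aorta libraries was analysed. The authors purified poly(A) RNA, made dUTP-marked libraries and sequenced paired reads; the submitters' processing notes name cutadapt 1.9, FastQC and the build GRCm38. Reads were mapped with HISAT2 and assembled with StringTie, so that several genes can share a locus. The authors deposited whole-number counts per locus and FPKM values (per transcript length and library size) in 1 table, and every column of it belonged to a sample (0 did not). Whether counting used strand is not given in the sources used here.

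The V loci and all gene lists were chosen with earlier results of these data known. A pair of genes of these lists and 1 V sequence are not reported here. Loci with a summed count of at least 20 were tested with edgeR 4.0.16 in R 4.3.3 (TMM scaling, quasi-likelihood test, Benjamini-Hochberg adjustment over 37189 loci), by title (5 against 3 libraries) and by genotype entry. The SE printed with an edgeR fold change is its size divided by the square root of the test's F statistic, not a separate estimate. Named loci were the 5 of highest mean CPM in the heavy and kappa chains, lambda loci, the first of each chain in each library, up to 5 per direction and comparison by p among those meeting the criterion, and those of lowest and highest sum; other names are the leaders of a library, or near copies, chosen after their values were seen. CPM divides a count by the library total, and a count of 0 allows up to 3 counts. Alternatives were other filters, median-ratio scaling, DESeq2 1.42.0, limma 3.58.1 on log2(FPKM + 1) and log2(FPKM + 0.1), left-out libraries and a replicate block. On simulated counts by title, the criterion called 198 of 200 changed loci and 988 of the other 36989. The changed loci were drawn from the better counted ones, with noise at the fitted dispersion. Their median fitted log2 fold changes were 1.97 and -2.07. V loci with 0 counts in many libraries differ from these, so that the simulation does not measure how well changes of V loci are found. The biological coefficient of variation was 0.480.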

Additional observations from a re-analysis of the deposited data

Results flagged for a closer look

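In 78 groups of 4 or 5 libraries, 10 values had a library standing apart by Dixon's ratio. Chance gives about 1 in 20 for values chosen without regard to single libraries, and that rate does not apply here, since many of the loci were named because they led 1 library. The largest share of a single V-only locus was 38.6% in ApoE-/- 3 (Ighv14-2), away from the other 4 libraries of its group by title and by genotype entry. ApoE-/- 2 stood apart in log2 CPM for Igkv4-57 at 2.99 and for the Igkv2-137 and Gm42889 locus at 0.44, in both of its groups. Among the libraries entered Apoe-/-, ApoE-/- 2 also stood apart for Ighv1-74 at -0.69 and for Igkv4-53 at -1.73, and ApoE-/- 3 for Ighv1-66 at -2.26. Ighv3-1 was at -0.20 in ApoE-/- 1, apart from the 4 other libraries titled ApoE-/-, which held no count of it. These log2 values include a prior count of 2.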

How the results depend on the processing

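Of 122 recomputed values for the main results, 98 stayed within a set limit. The limit was the SD between libraries or, for counts, a change of 1.5 times, and a count that stayed at 0 was kept. Direction was not part of this check. The 36 V loci that met the criterion by title became 7 with a filter of at least 1 FPKM in at least 3 libraries (11 V loci tested), 11 and 2 with limma on log2(FPKM + 0.1) and log2(FPKM + 1), 15 in the 4 libraries with 1 genotype in both labels (3 against 1, where the lone library is assumed to vary like the rest) and 13 by genotype entry, and ran from 11 to 51 with 1 library left out. By genotype entry, 13 became 1 with the FPKM filter, 0 with either limma fit and 20 with no filter, and ran from 3 to 19. Over all loci tested by genotype entry, 583 became 95 of 20506 with the filter, 308 and 26 with limma and 785 of 44689 with no filter. Over all loci tested by title, 2050 became 712 of 20506 with the filter and 1363 and 186 with limma, in the order above. With 1 library left out, this title count ran from 1320 to 3432. The 15 V loci of the 3 against 1 fit rest on a single library with the deletion. Its group has no measured spread, so no conclusion is drawn from that count. DESeq2 found 11 V loci at an adjusted p under 0.05 by title (2.8% of all loci tested) and 1 by genotype entry (0.0887%). The difference in V level moved from -3.89 to -0.65 on the log2 scale by genotype entry, and ran from -4.73 to -3.31 by title with 1 library left out. The kappa share, 3.61 percentage points higher with the deletion by title, was 9.27 points higher by FPKM and 0.171 by genotype entry, and ran from 0.406 (without NPRC-/-ApoE-/- 2) to 7.36 (without NPRC-/-ApoE-/- 3). The effective number over all V loci, 2.68 lower with the deletion, ran from -4.37 (without ApoE-/- 3) to -0.19 (without ApoE-/- 2). For the largest single share the difference was 4.35 points over all V loci, where the Igkc locus leads every library, but -2.66 points by FPKM and -7.60 points for loci of V symbols only. The 9 antibody and B lineage loci, 2 of them V loci, became 4 by genotype entry and 5 to 13 with 1 library left out.

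Numbers of the titles did not pair the libraries: the correlations of same-numbered libraries were -0.19, -0.07 and 0.02. With the replicate block in libraries 1 to 3, 34 V loci met the criterion by title (51 in the same 6 libraries with no replicate block) and 4 antibody and B lineage loci did. Over all 37189 loci tested, 1883 met it with the replicate block and 2309 without. Among the 30 named loci, 14 fits changed sign. By genotype entry these were Ighv1-66 (6.30), Ighv1-74 (5.40), Igkv6-14/Igkv6-13 (5.10), Igkv4-61 (3.93), Ighv1-26 (3.00), Igkv3-12 (2.87) and Igkv4-53 (0.85). With 1 library left out, log2 fold changes ran from -6.72 to 5.2 for Ighv3-1, from -6.75 to 1.21 for Ighv8-8 and from -5.57 to 1.32 for Igkv4-53. The cause of these changes was not tested. A library with 86 V-only counts (NPRC-/-ApoE-/- 2) cannot show loci of low use, and 3 libraries in a group limit every test.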
